A study of Mus musculus with 6 samples.

Results

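Bdnf, Cartpt, Chga and Cckbr are 4 genes of neurotrophin and neuropeptide signalling, and they are 4 of the 6146 genes measured here. Each had 1 cDNA probe, among 11502 probes that were not control spots. They were chosen by their measured ratios in these same arrays together with their link to pain. Their values are therefore given as a description, with no test. A probe was taken as a member where the platform annotation gave it one of these symbols and no other. All 4 probes had a usable value on all 6 arrays.

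The arrays compared brain RNA of male mice aged 9 weeks, taken 10 min after naloxone, a drug that blocks opioid receptors, with brain RNA taken 10 min after saline. The NY1DD strain, a transgenic mouse that carries human globin genes and models sickle cell disease, supplied 3 arrays. Wild-type C57BL/6J mice supplied the other 3. Naloxone RNA carried Cy5 and saline RNA carried Cy3 on every array of both strains. The labels do not say whether arrays of a strain came from separate mice or whether brains were pooled, so every SD below is the spread between arrays, which may be technical. A number in the sample titles, of unstated meaning, is shared by C57BL/6J replicates 1 and 2 and never by arrays of different strains. If it marks a batch, batch and strain cannot be told apart.

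Each value is a log2 ratio of the 2 channels, centred on its array's median. A value of 0 is the array's median ratio, a positive value is likely more RNA after naloxone than after saline, and a negative value is likely less. That direction rests on the design text, which assigns naloxone to Cy5 and saline to Cy3. The numerator itself is not stated, and if it is saline, every sign turns. Without swapped dyes, a dye bias of a probe is part of its strain means, but a bias that is equal on all arrays cancels in the difference between strains. Ratios give no level of a gene, so the abundance of these mRNAs, their signal over background and the identity of the tissue could not be read from them. In whole brain RNA, fewer cells of a type and less RNA per cell cannot be told apart.

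Bdnf encodes brain-derived neurotrophic factor, a secreted protein that acts through the TrkB receptor and is known for strengthening synapses, in pain pathways among others. Cartpt encodes the precursor of CART peptides, which neurons of the hypothalamus, midbrain and other regions release with other transmitters. Chga encodes chromogranin A, an acidic protein of dense-core granules, the vesicles in which peptides are stored and cut to their active forms. Cckbr encodes the brain receptor of cholecystokinin, a peptide known for opposing opioid analgesia.

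Bdnf and Cartpt are textbook targets of CREB, the transcription factor that cAMP and calcium signals activate through the CRE motif. The 250 bases upstream of each start site in a RefSeq promoter table (GRCm38.p6) were therefore searched for the full motif TGACGTCA and for its half-site TGACG or CGTCA, on both strands. Every full motif also holds the half-site. One stretch of 100 bases per gene is shown 5′ to 3′ in the gene's direction, with the matched letters in capitals, because these stretches carry the difference in motif content between the 4 genes. They lie at chr2:109692336-109692435 on the plus strand for Bdnf, chr13:99900742-99900841 on the minus strand for Cartpt, chr12:102554841-102554940 on the plus strand for Chga and chr7:105425631-105425730 on the plus strand for Cckbr.
Bdnf: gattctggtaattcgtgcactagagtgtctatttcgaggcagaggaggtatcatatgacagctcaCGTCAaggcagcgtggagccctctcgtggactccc
Cartpt: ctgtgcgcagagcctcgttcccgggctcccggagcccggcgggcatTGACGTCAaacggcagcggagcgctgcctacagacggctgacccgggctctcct
Chga: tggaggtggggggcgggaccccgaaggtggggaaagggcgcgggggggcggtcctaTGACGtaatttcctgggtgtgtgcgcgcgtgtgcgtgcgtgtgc
Cckbr: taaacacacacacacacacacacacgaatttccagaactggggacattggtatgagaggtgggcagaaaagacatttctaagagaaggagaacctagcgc

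Cartpt held the full motif, from 112 to 105 bases upstream of its start. Chga held a half-site from 44 to 40 bases upstream. Bdnf, which has many promoters, has 7 such windows in the table, and 1 of them held a half-site, from 35 to 31 bases upstream of that start. The 1 window of Cckbr held neither. The annotated gene spans of Cartpt and Cckbr begin upstream of the start used by their 1 window, so other starts of these genes were not searched. Of 32851 promoter windows of the same length, 1.55% held the full motif and 17.8% held at least the half-site. These shares are per window, so Bdnf, with 7 windows, had more places for a match than the other genes, with 1 each. A match describes letters in the window and is neither a shown binding site nor a cause of a ratio. The arrays do not tell which Bdnf promoter was in use.

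The Bdnf gene spans chr2:109674700-109727043 in GRCm38.p6. Where each cDNA probe lies in its transcript is not given in the sources used here. The log2 ratio of Bdnf was 0.31, 0.23 and 1.21 on NY1DD replicates 1, 2 and 3. On C57BL/6J replicates 1, 2 and 3 it was 0.23, 0.38 and 0.19. Bdnf was above 0 on all 6 arrays, and 5 of the 6 values were close together. NY1DD replicate 3 stood apart, at a ratio of 2.31. Among all features on all 6 arrays, 2.43% were above 0 on every one.

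The mean log2 ratio of Bdnf was 0.58 ± 0.55 (SD, n = 3) in NY1DD, a 1.50-fold ratio, and 0.27 ± 0.10 (SD, n = 3) in C57BL/6J, a 1.20-fold ratio. The limma model, which shares 1 estimate of a gene's spread between the strains, gave each mean a standard error (SE) of 0.21. The share of all features with a mean at or above that of Bdnf was 2.85% in NY1DD and 10.6% in C57BL/6J. The strains overlapped, and NY1DD exceeded C57BL/6J by 0.31 (SE 0.29) on the log2 scale. That difference came from 1 array: without NY1DD replicate 3 the NY1DD mean was 0.27 and the difference was 0.000538. The wider spread of Bdnf in NY1DD was likewise the distance of replicate 3 from the other arrays.

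Cartpt (chr13:99898483-99910179) went the other way. Its log2 ratio was -0.25, -0.66 and -0.45 on NY1DD replicates 1, 2 and 3, and -0.59, -0.03 and -0.32 on the C57BL/6J replicates in the same order. Cartpt was below 0 on all 6 arrays, although C57BL/6J replicate 2 lay almost at 0. Of all features, 4.65% were below 0 on every array. The NY1DD mean was -0.46 ± 0.21 (SD, n = 3; model SE 0.16), a ratio of 0.729. The C57BL/6J mean was -0.32 ± 0.28 (SD, n = 3; model SE 0.16), a ratio of 0.804. At or below these means lay 8.06% of all features in NY1DD and 11.6% in C57BL/6J.

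The strains overlapped for Cartpt, with a difference of -0.14 (SE 0.23) that was smaller than the spread within either strain. This difference also rested on single arrays of C57BL/6J. Without replicate 2 the C57BL/6J mean of Cartpt was -0.46 and the difference was 0.003491. Without replicate 1 the C57BL/6J mean was -0.18 and the difference was -0.28.

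Chga (chr12:102554941-102565027) had the most even values of the 4 genes. Its log2 ratio was -0.41, -0.30 and -0.35 on NY1DD replicates 1, 2 and 3, and -0.24, -0.24 and -0.16 on the C57BL/6J replicates in that order. All 6 arrays were below 0, and every NY1DD array lay below every C57BL/6J array, by a gap of 0.065 between the nearest arrays. The gap was 0.000295 with the arrays scaled to one spread, and it turned to -0.13, an overlap, with plate row and column medians subtracted. Of all features on all 6 arrays, 4.19% had their NY1DD values entirely below their C57BL/6J values. The share with NY1DD values entirely above them is not given here. The NY1DD mean was -0.35 ± 0.05 (SD, n = 3; model SE 0.12), a ratio of 0.783, and the C57BL/6J mean was -0.21 ± 0.04 (SD, n = 3; model SE 0.12), a ratio of 0.863.

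The difference between strains for Chga was -0.14 (SE 0.17). The model's SE was larger than the SDs imply because limma moves the small spread of Chga towards that of other features. At or below the means of Chga lay 12.6% of features in NY1DD and 18.4% in C57BL/6J.

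Cckbr (chr7:105425676-105436339), the only receptor of the 4, had log2 ratios of -0.05, -0.23 and -0.51 on NY1DD replicates 1, 2 and 3. On C57BL/6J replicates 1, 2 and 3 they were -0.23, 0.02 and -0.49. Cckbr was below 0 on 5 of 6 arrays, it was lowest on replicate 3 of both strains, and the strains covered nearly the same range. The NY1DD mean was -0.26 ± 0.23 (SD, n = 3; model SE 0.16), a ratio of 0.833, and the C57BL/6J mean was -0.23 ± 0.26 (SD, n = 3; model SE 0.16), a ratio of 0.851. The difference was -0.03 (SE 0.23). Single arrays moved both means of Cckbr: the NY1DD mean was -0.14 without NY1DD replicate 3, and the C57BL/6J mean was -0.10 without replicate 3 and -0.36 without replicate 2. At or below the means of Cckbr lay 18.9% of all features in NY1DD and 16.7% in C57BL/6J.

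**Figure D1:**
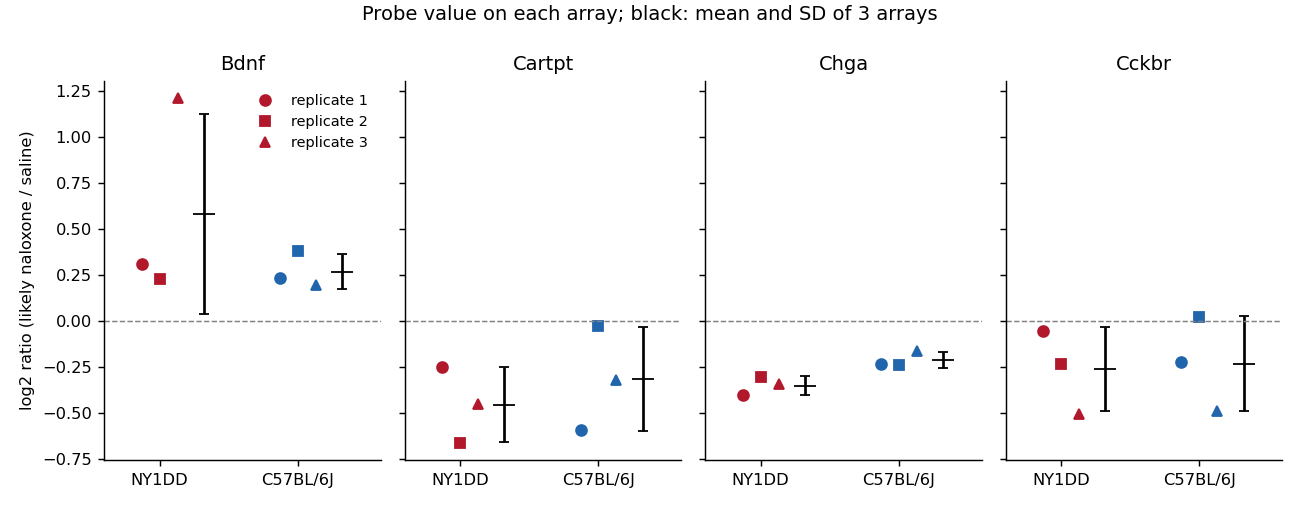
The vertical axis is the centred log2 ratio of each gene on each array, with points for the 3 NY1DD and the 3 C57BL/6J replicates and bars for the strain mean and SD. Bdnf lies above 0 on all 6 arrays with NY1DD replicate 3 at 1.21, Cartpt and Chga lie below 0 on all 6, Cckbr lies below 0 on 5, and only Chga has strains that do not overlap on this scale, by 0.065, a gap that turned to -0.13 with plate row and column medians subtracted.

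By strain mean, Bdnf was the highest of the 4 genes in NY1DD and in C57BL/6J, at 0.58 and 0.27, and Cartpt the lowest, at -0.46 and -0.32. Chga and Cckbr stood at -0.35 and -0.26 in NY1DD and at -0.21 and -0.23 in C57BL/6J, so they changed places. In each strain the intervals of 1 SE around the means of Cartpt, Chga and Cckbr overlapped. These are ratios within a gene, and they do not rank the genes by abundance.

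**Figure D2:**
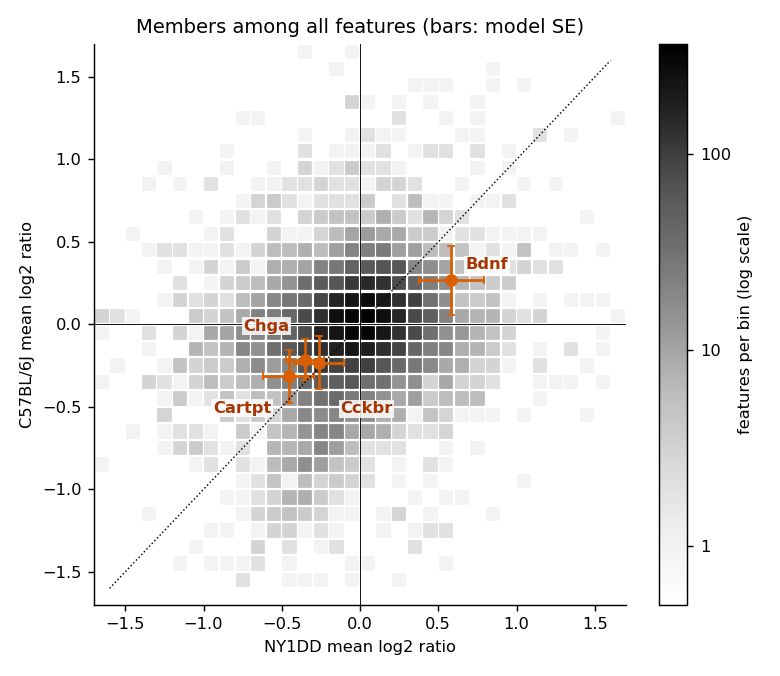
The horizontal axis is the NY1DD mean log2 ratio, the vertical axis the C57BL/6J mean log2 ratio, grey squares count features on a log scale, the dotted line marks equal means, and orange points with model SE bars are the 4 genes; 50 of 9685 features lie beyond 1.7 on an axis and are not drawn. Bdnf lies in the upper right at 0.58 and 0.27, and Cartpt, Chga and Cckbr lie together in the lower left within the dense part of the plot.

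Usable probes numbered 11155 to 11413 per array, and the SD of their log2 ratios was 0.44 to 0.59. Between arrays, Pearson correlations across features were 0.0194 to 0.191 within NY1DD, 0.124 to 0.148 within C57BL/6J and -0.0701 to 0.178 between strains. Limma with Benjamini-Hochberg adjustment over 9685 features called 0% of them below an adjusted p of 0.05 in NY1DD, 0% in C57BL/6J and 0% for the difference between strains. The smallest adjusted p-values were 0.271, 0.195 and 0.969. At an unadjusted p below 0.05 there were 810 features in NY1DD (8.36%), 673 in C57BL/6J (6.95%) and 436 for the difference (4.50%).

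Probe names carry the plate well of each cDNA clone, and ratios moved with it. Cartpt, Chga and Cckbr all came from column 7 of their plates, which supplied 959 probes (8.34%), and Bdnf came from column 10. The median log2 ratio of all column 7 probes was -0.15, 0.17 and -0.28 on NY1DD replicates 1, 2 and 3 and -0.11, -0.03 and -0.15 on the C57BL/6J replicates. Column 7 was thus above 0 only on NY1DD replicate 2, and Cckbr only on C57BL/6J replicate 2. On that array Cckbr stood at 0.02, and the median of the probes from its own well position at 0.01. The part of the well in the members' ratios was not tested.

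Each member was also set against the median of the probes in its own well position, with 104 to 120 usable probes per array. For Bdnf these medians were 0.07, -0.03 and 0.11 on the NY1DD replicates and 0.08, 0.03 and 0.14 on the C57BL/6J replicates. Bdnf exceeded its well on all 6 arrays, by means of 0.53 in NY1DD and 0.19 in C57BL/6J. For Cckbr the well medians were -0.06, 0.02 and -0.45 and then -0.19, 0.01 and -0.22. Cckbr had a mean distance from its well of -0.10 in each strain, and it lay above it, by little, on 2 of 6 arrays.

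For Cartpt the well medians were -0.25, 0.11 and -0.24 on the NY1DD replicates and -0.09, -0.14 and -0.21 on the C57BL/6J replicates. Relative to them Cartpt stood at -0.33 in NY1DD and -0.17 in C57BL/6J, and it was above its well on 2 of 6 arrays. The well medians of Chga were -0.08, 0.20 and -0.27, and then -0.08, 0.04 and -0.06. Chga was below its well on all 6 arrays, by means of -0.30 and -0.18, but after this subtraction its strains overlapped.

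**Figure D3:**
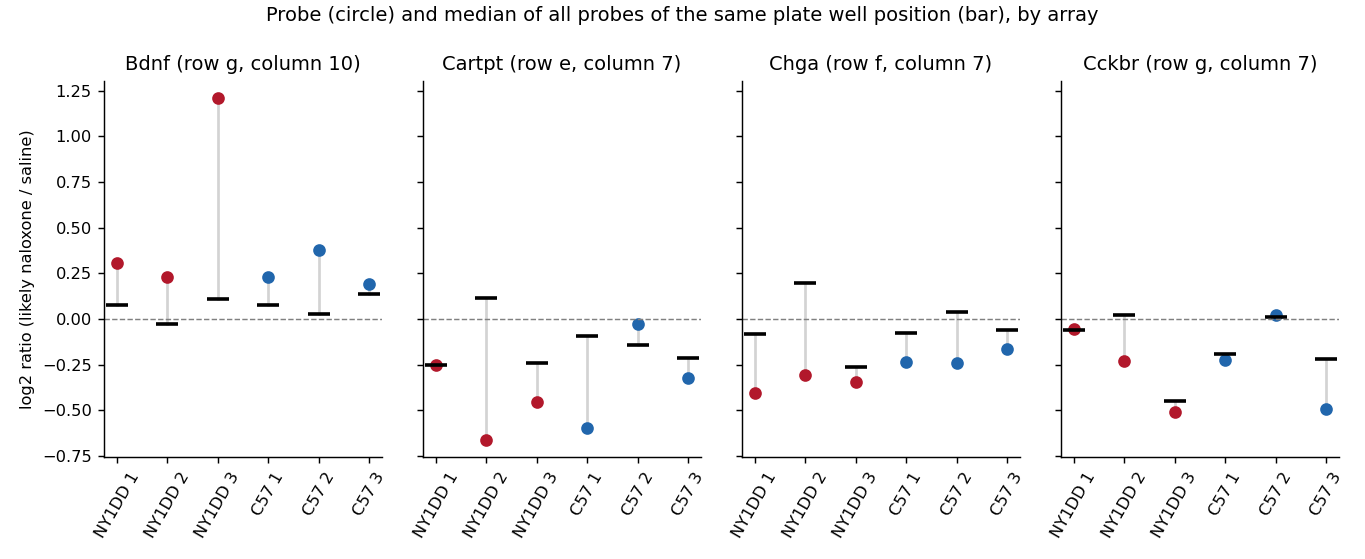
Each panel is 1 gene, the vertical axis is the centred log2 ratio, and the horizontal axis holds the 6 arrays, with the gene's own value and the median of all probes from the same plate well. Bdnf lies above its well on all 6 arrays and Chga below its well on all 6, while Cckbr lies just above its well on 2 arrays and below it on the others, with -0.45 for the well and -0.51 for the gene on NY1DD replicate 3.

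Markers of brain regions moved between arrays too. On NY1DD replicate 3, where Bdnf was 1.21, the median log2 ratio was 0.44 over 8 of 16 striatum neuron markers measured, 0.12 over 16 of 22 cortex and hippocampus markers and -0.74 over 11 of 18 cerebellum markers. Striatum medians ran from 0.23 to 0.44 on the NY1DD arrays and from -0.12 to 0.01 on the C57BL/6J arrays. They did not overlap between strains, but how often marker lists separate with 3 arrays per strain was not tested. Cerebellum medians ran from -0.74 to -0.03 and from -0.05 to 0.16, and cortex and hippocampus medians from 0.02 to 0.15 and from -0.13 to 0.12. Of 28 markers of hypothalamus and pituitary, where Cartpt is known to be abundant, 3 were measured (Trh, Pomc and Gh), and their median ran from -0.63 to 0.32 in NY1DD and from -0.35 to 0.12 in C57BL/6J. The part of brain region content in the ratios of Bdnf, Cartpt, Chga and Cckbr was not tested.

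**Figure D4:**
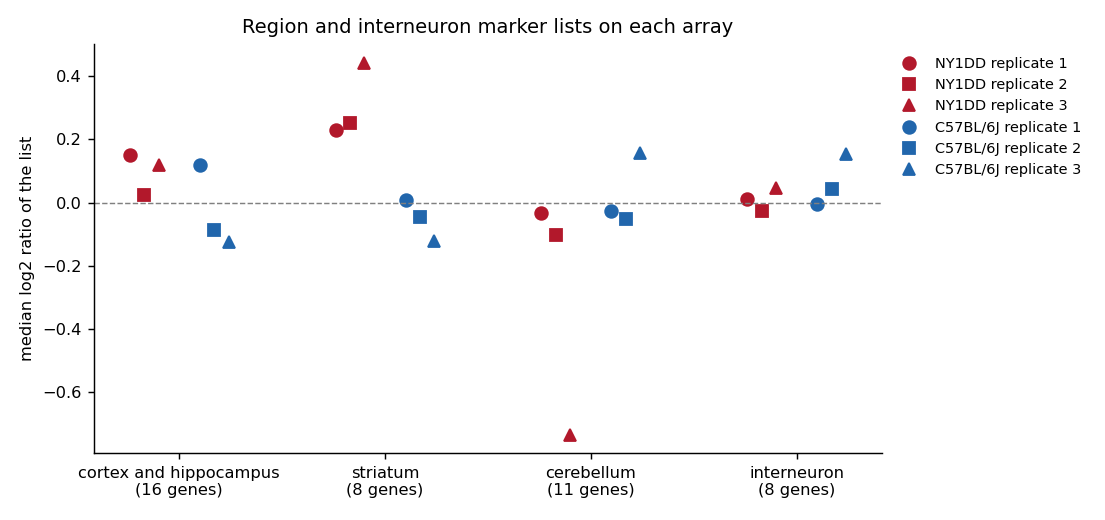
The vertical axis is the median log2 ratio of the measured markers of each brain region or cell group on each array, with NY1DD and C57BL/6J arrays in separate colours. Striatum medians of NY1DD (0.23 to 0.44) lie above those of C57BL/6J (-0.12 to 0.01), and the cerebellum median is lowest on NY1DD replicate 3, at -0.74. How often marker lists separate with 3 arrays per strain was not tested.

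The other genes of these pathways were counted on lists written from general knowledge, and many listed genes were not measured. With the members included, 9 of 17 genes were measured for neurotrophins and receptors, and 14 of 36 for TrkB signalling. For Bdnf regulators it was 18 of 32, for precursors 11 of 49 and for granule proteins 15 of 21. For processing enzymes it was 8 of 24 and for neuropeptide receptors 10 of 59. Across the lists, 79 genes besides the 4 were measured, and 0 passed an adjusted p of 0.05 in NY1DD, in C57BL/6J or for the difference (limma, Benjamini-Hochberg over all features). At an unadjusted p below 0.05 there were 4 of the 79 in NY1DD (5.06%), 6 in C57BL/6J (7.59%) and 4 for the difference (5.06%), against 8.36%, 6.95% and 4.50% of all features. Their median log2 ratio was 0.03 in NY1DD and 0.02 in C57BL/6J, against -0.02 and -0.00 over all features.

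On the list of neurotrophins, their receptors and receptor partners, 8 genes besides Bdnf were measured, none of them a neurotrophin. The median of the 8 was 0.01 in NY1DD and 0.05 in C57BL/6J, and 5 were positive in each strain. Ntrk2, which encodes the BDNF receptor TrkB, had 4 probes whose average was 0.04 (SE 0.13) in NY1DD and 0.10 (SE 0.13) in C57BL/6J. The highest of the other genes in NY1DD was Maged1, which encodes a partner of the neurotrophin receptor p75, at 0.30 (SE 0.17), and next was Bex3, another p75 partner, at 0.11. The lowest were Sorcs1 at -0.32 (SE 0.17) and Sorcs2 at -0.29 (SE 0.135), which encode sorting receptors of the sortilin family. In NY1DD, Bdnf at 0.58 was above the other measured genes of this list, but without NY1DD replicate 3 it stood at 0.27, below Maged1 at 0.33.

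Of 14 genes of signalling downstream of TrkB, 6 were positive in NY1DD and 8 in C57BL/6J. Pik3r1, a regulatory subunit of PI3 kinase, stood at 0.41 and 0.39 in the strains, and Braf, a kinase of the MAP kinase cascade, at 0.33 and 0.12. Rheb, a GTPase that activates mTOR, stood at -0.40 and -0.17. Crkl, an adaptor protein, had means of -0.55 (SE 0.20) in NY1DD and 0.55 (SE 0.20) in C57BL/6J, and the difference of -1.10 (SE 0.29) had an adjusted p of 0.969 in limma.

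Of 18 genes that regulate Bdnf transcription or the transport of BDNF, 13 were positive in NY1DD, with a median of 0.11, and 9 in C57BL/6J, with a median of -0.06. Camk2a, the alpha subunit of calcium/calmodulin-dependent kinase II, had a mean of 0.62 (SE 0.20) in NY1DD and -0.20 (SE 0.20) in C57BL/6J. It is also one of the cortex and hippocampus markers counted above. Cpe, carboxypeptidase E, which trims peptides and sorts BDNF, had 3 probes with an average of 0.33 and 0.16. Crebbp, the coactivator that CREB recruits, stood at -0.24 in NY1DD and -0.83 (SE 0.26) in C57BL/6J. Furin, a protease that cuts proBDNF, stood at -0.39 and -0.18.

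Of 10 neuropeptide precursors besides Cartpt, 7 were positive in NY1DD, with a median of 0.13, and 5 in C57BL/6J, with a median of -0.00. Cartpt, at -0.46 in NY1DD, was below each of these 10, but close to Grp at -0.43, and without NY1DD replicate 2 Cartpt stood at -0.35 and Grp at -0.74. Pomc, the precursor of beta-endorphin, had a mean of 0.47 in NY1DD with an SE of 0.64, since its arrays ran from -1.23 to 1.48. Sst, the precursor of somatostatin, stood at 0.41 (SE 0.40), Trh, that of thyrotropin-releasing hormone, at -0.14 (SE 0.14) and Grp, that of gastrin-releasing peptide, at -0.43 (SE 0.26) in NY1DD. Without NY1DD replicate 3 the means of Pomc and Sst were -0.04 and -0.23.

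Of 14 granule proteins besides Chga, 11 were positive in NY1DD, with a median of 0.22, and 10 in C57BL/6J, with a median of 0.04. The NY1DD median of these 14 ran from 0.09 to 0.27 over the alternatives of processing, lowest without NY1DD replicate 1. Chga was below each of them in NY1DD, at -0.35, and in C57BL/6J, at -0.21, but it was chosen partly by its ratios here. It kept that place under 13 of 16 alternatives in NY1DD and 14 in C57BL/6J, many of which could not move its value. Without NY1DD replicate 1 or 2 Scg5 was lower, with plate row and column medians subtracted Scg2 was, and Pcsk1n or Scg5 was lower in C57BL/6J without its replicate 2 or 3. The granin Scg3 stood at 0.51 (SE 0.37) in NY1DD and Vgf, a granin-like peptide precursor, at 0.40 (SE 0.37). Scg3 has 2 probes, and with the 1 that was measured on all 6 arrays its means were -0.07 in NY1DD and -0.02 in C57BL/6J. Without NY1DD replicate 3 the other probe of Scg3 failed the filter of 2 arrays per strain. The means of Scg3 were then -0.09 in NY1DD and again -0.02 in C57BL/6J, from 1 probe. Without NY1DD replicate 2 the NY1DD mean of Vgf was -0.07. The granin Scg2 stood at -0.27 (SE 0.18) and Scg5, the chaperone of a prohormone convertase, at -0.24 (SE 0.20), or at 0.03 without NY1DD replicate 3.

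Of 8 enzymes that process peptides, 4 were positive in NY1DD and 3 in C57BL/6J. Pam, which amidates peptides such as cholecystokinin, stood at -0.34 (SE 0.20) in NY1DD, and Anpep, a peptidase of the cell surface, at 0.13 (SE 0.25). Of 9 neuropeptide receptors and accessory proteins besides Cckbr, 3 were positive in NY1DD, with a median of -0.12, and 4 in C57BL/6J, with a median of -0.02. Their NY1DD means ran from -0.59 to 0.44. Over the alternatives of processing, their NY1DD median ran from -0.37 with values at the lower limit kept to 0.0016 with well medians subtracted. Ramp2, which partners receptors of the calcitonin family, stood at -0.59 (SE 0.36), and at 0.03 without NY1DD replicate 1. The neurotensin receptor Ntsr2 stood at -0.40 (SE 0.26), and at 0.02 without NY1DD replicate 3. The orexin receptor Hcrtr1 stood at 0.04 (SE 0.22) and the VIP receptor Vipr2 at 0.25 (SE 0.37). Of the 3 genes listed for the cholecystokinin system, Cckbr was measured, while Cck and Cckar were not analysed here.

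**Figure D5:**
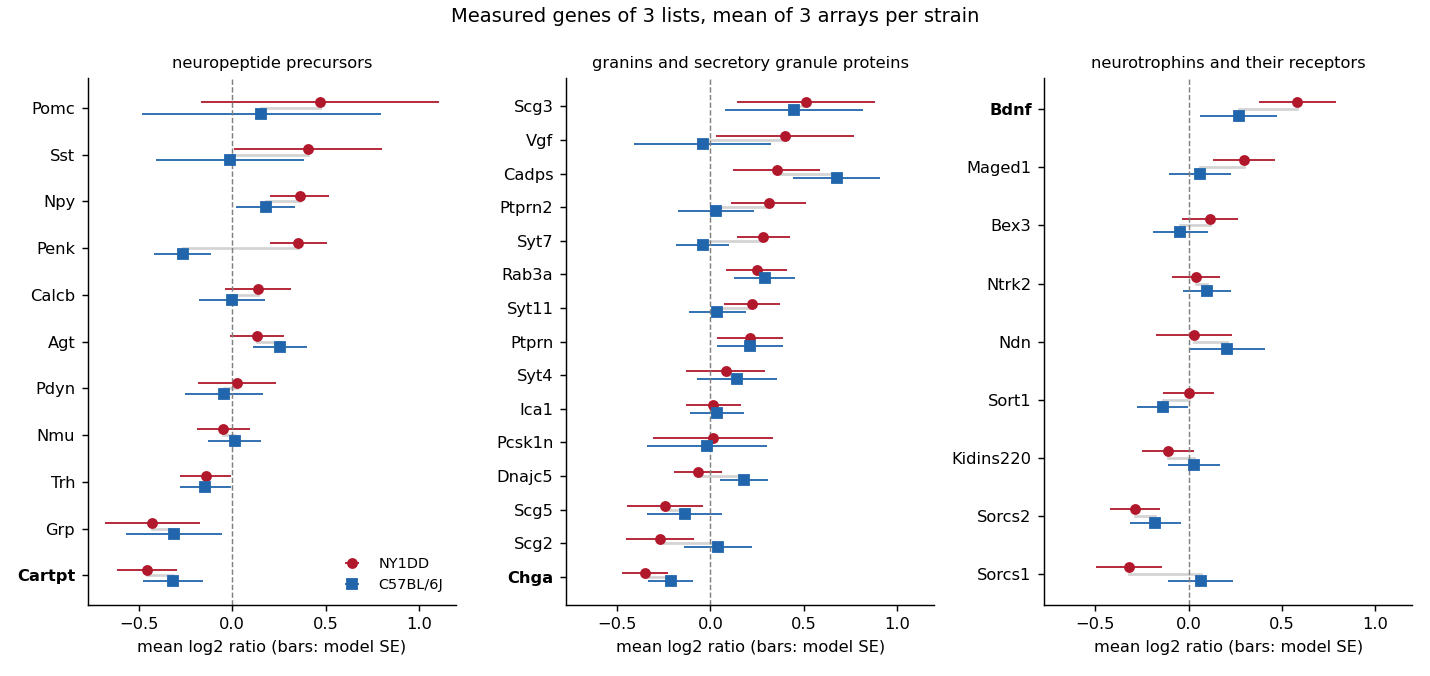
Each row is a measured gene of 3 of the lists, the horizontal axis is the mean log2 ratio, and points with model SE bars stand for NY1DD and C57BL/6J, 3 arrays each. Bdnf, the only neurotrophin measured on its list, has the highest NY1DD mean of the 9 genes shown for that list, at 0.58. Cartpt at -0.46 and Chga at -0.35 have the lowest among 11 precursors and 15 granule proteins. These places changed when single arrays were left out, and the genes were chosen with these values known.

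Some genes had ratios on the 6 arrays close to those of a member, measured by the root mean square (RMS) difference in log2 ratio over the 6 arrays among 5856 genes. Nearest to Bdnf were Cd82 (0.122), Tomm34 (0.175) and Trmt1 (0.188). The search itself favours genes that, like Bdnf, are high on NY1DD replicate 3, where these 3 stood at 1.22, 1.02 and 1.31. Nearest to Cartpt were Gstm5 (0.118), Gdi2 (0.163) and Psen2 (0.165). Plate column 7, that of Cartpt, Chga and Cckbr, supplied 8.34% of all probes. It also held Gstm5 and Psen2 but not Gdi2, 1 of the 3 genes nearest to Chga (Mtarc2) and none of those nearest to Cckbr. The part of plate position in these distances was not tested. Nearest to Chga were Uqcc1 (0.0987), Mtarc2 (0.0999) and Rgs10 (0.115), and nearest to Cckbr were Pnck (0.108), Ost4 (0.117) and Rbms2 (0.118).

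Between the members themselves the RMS difference was 0.246 for Cartpt and Chga, 0.256 for Cartpt and Cckbr and 0.235 for Chga and Cckbr. Bdnf was 0.811 to 0.912 from the other members. No typical distance between genes is given, so the distances here cannot be judged as small or large.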

How the data were processed

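The authors deposited natural log (ln) ratios of Cy5 and Cy3 from two-colour cDNA arrays, direct-labelled per the labels' protocols. The base was read from the values: back-transformation gave 401 whole multiples of 0.1 among 67772 values if e was the base, but 1 for base 2 and 2 for base 10 (tolerance 1e-06). How ratios were normalised and filtered, and with which software, is not given in the sources used here. Of 11532 spots, 30 controls were left out; of 11502 probes, 7906 had 1 symbol, 297 several and 3299 none. After conversion to log2, arrays were centred on their medians, and 293 values at the table's lower limit (a ratio of 0.01) counted as missing, which was decided with the values in view. Deposited ln medians were 0.0117 to 0.0382. Probes needed values on 2 arrays per strain. Those of a symbol were averaged, which left 9685 features, 9175 of them on all 6 arrays.

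Limma 3.58.1 (R 4.3.3) fitted 1 mean per strain to 6 arrays (residual df 4, prior df 3.13, prior SD 0.316), two-sided, with Benjamini-Hochberg adjustment; the script was tested on simulated data. The members and lists were chosen with earlier results of these data known. The text names the 4 members, Ntrk2 and Cck where measured, the 2 highest and 2 lowest other genes of each pathway list by NY1DD mean among those on all 6 arrays, and the 3 genes nearest to each member. Marker lists were counted for brain regions and interneurons, and also for oligodendrocytes, astrocytes, microglia, endothelium, choroid plexus and blood. Alternatives covered the lower limit, centring, scaling, filters, probe averaging, plate position, prior, replicate block and left-out arrays. Subtraction of well medians was added after seeing the data. Deviations of same-numbered arrays of the strains correlated at -0.0666, 0.0508 and 0.0197, so the numbers were not taken as pairs. Promoters and gene positions are from RefSeq tables (GRCm38.p6).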

Additional observations from a re-analysis of the deposited data

Results flagged for a closer look

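Of 171 genes of all lists with values on all 6 arrays, 6 (3.51%) had all arrays of one strain on one side of 0 and all arrays of the other strain on the opposite side, against 192 of 9175 features (2.09%). Of the 81 genes of the pathway lists, 3 were among them (3.70%). They fall outside the rule for named genes and were chosen after their values were seen. Penk, the precursor of enkephalin opioid peptides, had log2 ratios of 0.21, 0.28 and 0.57 on the NY1DD replicates and of -0.53, -0.17 and -0.10 on the C57BL/6J replicates, a difference of 0.62. Penk is also one of the striatum markers. Ghsr, the ghrelin receptor, had -0.34, -0.26 and -0.58 in NY1DD and 2.31, 0.85 and 0.20 in C57BL/6J, a difference of -1.51. Dnajc5, a chaperone of secretory vesicles, had -0.09, -0.05 and -0.06 in NY1DD and 0.31, 0.03 and 0.19 in C57BL/6J, a difference of -0.25. Beside these 3 genes of the pathway lists there were 3 cell markers. Olig2, a transcription factor of oligodendrocytes, had 0.12, 0.09 and 0.01 in NY1DD and -0.11, -0.28 and -0.40 in C57BL/6J, a difference of 0.34. Trf, transferrin, had -0.09, -0.06 and -0.61 in NY1DD and 0.10, 0.02 and 0.09 in C57BL/6J, a difference of -0.33. Slc1a2, the glutamate transporter of astrocytes, had -0.13, -0.41 and -0.08 in NY1DD and 0.01, 0.03 and 0.16 in C57BL/6J, a difference of -0.27. The limma adjusted p of each of the 6 differences was 0.969.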

How the results depend on the processing

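The counts of features called at an adjusted p of 0.05 were 0 in NY1DD, C57BL/6J and their difference under every alternative run. The strain means of the 4 genes kept their sign under all 17 alternatives each. Many of these could not move a strain mean, since each gene had 1 probe and a value on all 6 arrays. Filters, probe averaging, the prior, the replicate block and left-out arrays of the other strain left it unchanged. Signs of differences turned for Cartpt without C57BL/6J replicate 2 (0.003491) and for Cckbr with plate row and column medians subtracted (0.029), without C57BL/6J replicate 2 (0.095) or NY1DD replicate 3 (0.090). With arrays left out, the difference ran from 0.000538 to 0.49 for Bdnf and from -0.16 to 0.095 for Cckbr. The Chga difference was -0.079 with the arrays scaled to one spread. With plate row and column medians subtracted, Chga was -0.24 in NY1DD and -0.12 in C57BL/6J. The gap between strains for Chga turned into an overlap of -0.13 with plate row and column medians subtracted and of -0.20 with well medians subtracted; the cause was not tested. Of the 27 other genes named from the lists, 10 changed the sign of their NY1DD mean under at least 1 alternative. For the C57BL/6J mean, 9 did. The genes nearest to each member and the flagged genes were not followed under the alternatives. With the replicate block 0 features were called. The Bdnf difference stayed at 0.31, since this block cannot move it for a gene with values on all 6 arrays. The planned random block on the title number was not run, because only 1 number is shared and it could not be fitted. With 3 arrays per strain, 1 probe per gene and no intensities, precision is limited by the number of arrays, and no ratio has a measure of signal over background.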

Other observations

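Interneuron markers (8 of 16 measured) had median log2 ratios of -0.03 to 0.05 on the NY1DD arrays and of -0.00 to 0.15 on the C57BL/6J arrays. Oligodendrocyte markers (16 of 20) ran from -0.01 to 0.11 in NY1DD and from 0.04 to 0.10 in C57BL/6J. Astrocyte markers (14 of 20) ran from -0.09 to -0.03 and from 0.03 to 0.09, so the arrays of the strains did not overlap. Among single features on all 6 arrays, 4.19% had their NY1DD values entirely below their C57BL/6J values. How often a list median does so was not tested. Microglia markers (5 of 16) ran from -0.11 to 0.14 and from -0.08 to -0.01, and endothelial and mural cell markers (15 of 23) from 0.07 to 0.19 and from -0.02 to 0.16. Choroid plexus markers (7 of 14) ran from -0.20 to -0.04 and from -0.07 to 0.05. Of 15 blood and red cell markers, 1 was measured, and it ran from -0.66 to 0.80 in NY1DD and from -0.81 to 0.88 in C57BL/6J.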
